A study of Glycine max with 30 samples.

Results

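The 1010 regions described here were listed as open chromatin in soybean leaves at 2 or 3 of the subjective daytime samplings (ZT0, ZT4 and ZT8) and at none of the subjective nighttime samplings (ZT12, ZT16 and ZT20). They were chosen by the authors' 6 merged lists of accessible chromatin regions (ACRs), 1 list per time point. Overlapping or touching regions of these lists were joined into 35922 union regions, of which the 1010 day-only regions made up 2.81%. The comparison classes were the 1702 night-only regions, chosen by the mirrored rule, and the 6538 regions present in all 6 lists. Because the merged lists chose the members, every count of day against night below is a description of them, and no test of that contrast is given.

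The data came from ATAC-seq, in which the transposase Tn5 cuts DNA that is not wrapped up in nucleosomes and the fragments between cuts are sequenced. Wild-type soybean (Glycine max, cultivar Ws82) was raised for about 18 days in short days of 8 h light and 16 h dark, at 24 °C in light and 22 °C in dark, and then moved to constant light. The labels give 25 °C for constant light and the study's methods give 24 °C. After 1 day there, the first trifoliate leaf was taken every 4 h at ZT0, ZT4, ZT8, ZT12, ZT16 and ZT20, with 3 biological replicates, named L, M and R, at each time point. The study counts the same samplings from the start of constant light. All 18 libraries used here were wild type under constant light, so no group received darkness, and day and night are subjective throughout. With ZT0 as the usual hour of lights on, the light phase of the earlier short days ended at ZT8. The other 12 of the 30 samples of the series, wild type and lines lacking the clock genes LHY or LUX, were not analysed here.

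The plant circadian clock is a set of transcription factors that repress and activate one another in turn, with morning factors such as LHY and evening factors such as LUX holding each other in check. It keeps running in constant light, which is why leaves are sampled there to separate the clock from the light itself. Open regions of leaf chromatin mark promoters and enhancers where such factors can bind, and many of them are open at all hours. A peak in ATAC-seq is a stretch where fragments pile up above the local background, and its summit is the base where most of them overlap. No gene annotation or genome of the assembly used by the files (Wm82.a2.v1) was used here, so the regions are named by position only, and leaf marker genes could not be examined.

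Each library also had its own list of peaks. The study's methods describe calling peaks in single libraries after sampling the reads to a common depth. Whether the lists used here came from such reads was not tested. The most frequent local background differed between the libraries, so equal depth is not assumed. The 18 lists held between 7668 and 21804 peaks. A region was counted as called in a library when at least 1 bp of it was covered by a peak of that list. ZT8 R had 8143 peaks, far fewer than the 15942 of ZT8 L and the 16939 of ZT8 M. Of the 859 members listed at ZT8, 56 had no peak in a ZT8 library other than ZT8 R, and 961 of the 1010 members met the rule when those listings were set aside.

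Most members were shared by the midday and late samplings. The lists of ZT4 and ZT8, without ZT0, held 571 of the 1010 (56.5%). ZT0 and ZT4 alone shared 151, ZT0 and ZT8 alone shared another 151, and 137 members (13.6%) stood in all 3 day lists. The ZT0 list was also the shortest of the day, with 13675 regions against 18794 at ZT4 and 18559 at ZT8. Among the night-only regions the pair of ZT12 and ZT16 came first, with 813 of 1702 (47.8%), and the shortest night list was that of ZT20, with 15405 regions against 21022 at ZT12 and 19647 at ZT16. So in either class the commonest pair left out the time point with the shortest list of its class. The part of list length in this was not tested.

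A listing often rested on a single library. The 1010 members had 2157 listings in the day lists, and in 1516 of these (70.3%) exactly 1 of the 3 libraries of that time point had a peak. In 529 listings (24.5%) 2 libraries had one, and in 112 (5.19%) all 3 did. ZT0 listings rested on 1 library in 79.7% of 439 cases, against 67.8% of 859 at ZT4 and 68.0% of 859 at ZT8. The night-only regions were similar in this respect, with 1 library behind 68.9% of their ZT12 listings, 70.8% of their ZT16 listings and 80.1% of their ZT20 listings. Both classes were chosen for standing in few lists, and the share over all listings is not given here. In 535 members (53.0%) every listing had a single library behind it, whereas 113 members (11.2%) had 2 or more libraries behind each of their listings. Conversely, 84 of the 873 members listed at 2 time points (9.62%) also had a library peak at the daytime sampling whose list lacked them.

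The share of members with a peak was given for each library. At ZT0 it was 10.1% in L, 33.2% in M and 15.1% in R. At ZT4 it was 48.5%, 23.8% and 47.7% in the same order, and at ZT8 it was 51.1%, 53.4% and 14.4%. The replicates of a time point therefore differed more than the means of the time points, which were 19.5% ± 12.1 for ZT0, 40.0% ± 14.1 for ZT4 and 39.6% ± 21.9 for ZT8 (mean ± SD over 3 libraries each). The day libraries stood almost in the order of their list lengths, since the 3 shortest lists (ZT0 L, ZT8 R and ZT0 R, with 7668 to 9563 peaks) had the 3 lowest shares. The 4 longest day lists (ZT4 R, ZT8 L, ZT4 L and ZT8 M, with 15028 to 16939 peaks) were the only ones in which members were called more often than all other union regions, by a ratio of 1.19 to 1.27.

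In the night libraries, members were called in 3.27%, 13.3% and 7.72% of cases at ZT12 (L, M and R), in 6.34%, 9.80% and 2.77% at ZT16, and in 8.42%, 3.86% and 3.37% at ZT20. Here too the longest list, ZT12 M with 21804 peaks, had the highest share. The other union regions had a peak in 24.3% to 54.8% of cases in the same libraries. When every list was shortened to its 7668 peaks of highest −log10 q, members were called in 8.42% to 13.7% of cases in the day libraries and in 0.891% to 2.18% in the night libraries, while all other regions had 19.7% to 21.6% in each library. At that length ZT8 R had the highest share of members, 13.7%, and ZT4 M the next, 13.0%.

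**Figure D1:**
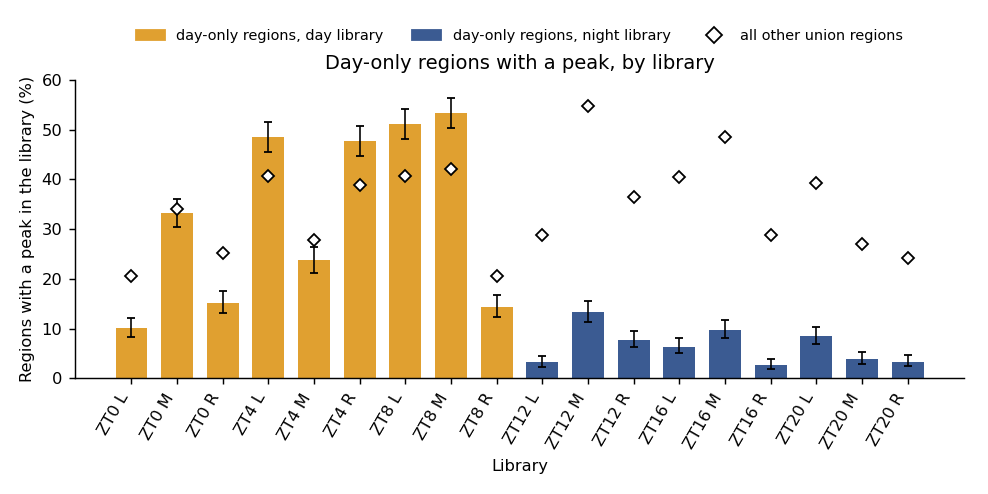
Bars show the share (%) of the 1010 day-only regions with a peak in each of the 18 libraries, with 95% Wilson intervals, and diamonds show the share of all other union regions. The bars reach 53.4% in ZT8 M but stay at 10.1% in ZT0 L and 14.4% in ZT8 R, and no night library exceeds 13.3%.

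The rule used the merged lists and not the single libraries, and 369 members (36.5%, 95% Wilson interval 33.6 to 39.6) had a peak in at least 1 night library. The remaining 641 (63.5%) had none, against 14.9% of all union regions, a contrast that the rule itself used. The intervals on shares of regions cover counting error only. In the night-only class 67.5% of the regions had no peak in a day library. Of the members with night peaks, 252 had them in a single night library, 63 in 2 and 54 in 3 or more. In 68 members (6.73%) 2 or more replicates of the same night time point had a peak, although no merged night list held the region. In 52 members (5.15%) at least as many night as day libraries had a peak. That held for 14.5% of the regions in 1 day list and no night list, and for 68.6% of all union regions. The mirrored share was 3.17% in the night-only class. Peaks in 3 or more libraries of the other part of the cycle were found in 5.35% of the members and 3.29% of the night-only regions. For the 68 members no such share is given here.

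Members had a peak in a mean of 2.97 of the 9 day libraries and 0.588 of the 9 night libraries. As many as 461 members (45.6%) were called in exactly 2 day libraries, and 104 (10.3%) in 5 or more. Every listing had a peak in at least 1 library of its time point, so 2 was the fewest that the rule allowed. In the night-only class, 43.6% were called in exactly 2 night libraries and 10.8% in 5 or more. Over all union regions, 13.5% were called in exactly 2 day libraries and 26.1% in 5 or more. Only 2 members were called in all 9 day libraries, and both had a peak in a night library. A peak in 5 or more day libraries with none at night was found in 49 members (4.85%). Of all union regions, 51 (0.142%) met it. The mirrored criterion was met by 79 night-only regions (4.64%), so the members did not stand out from that class. All 3 replicates of a day time point, with no night library, had a peak in 55 members (5.45%). Of the union regions, 0.292% met that. With peaks in the other part of the cycle allowed, 10% of the members had all 3 replicates of a day time point. In the night-only class, 8.70% had all 3 of a night time point. These criteria overlap with the rule and its mirror and are given as descriptions.

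**Figure D2:**
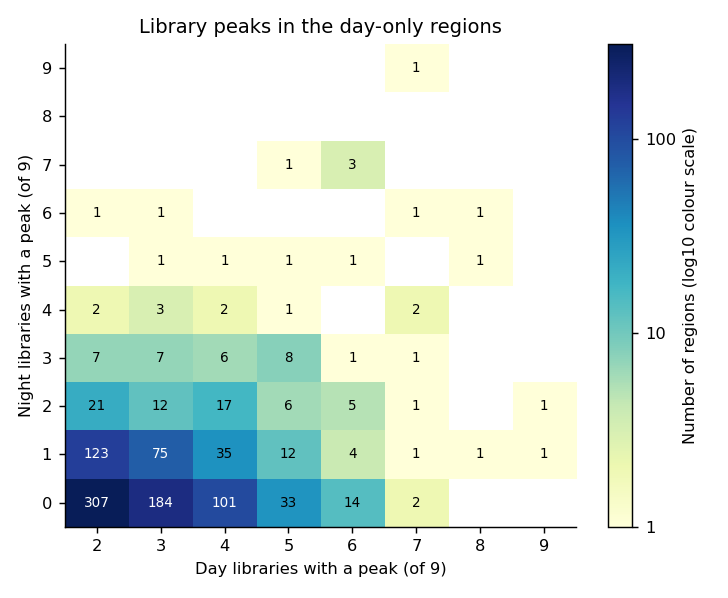
Each cell gives the number of day-only regions with a peak in that number of day libraries (x axis) and night libraries (y axis), coloured on a log10 scale. The corner of 2 day and 0 night libraries holds 307 regions, and a single region at 7 day and 9 night libraries stands apart from the rest.

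Among the 461 members called in exactly 2 day libraries, the commonest pairs joined 1 of ZT4 L and ZT4 R with 1 of ZT8 L and ZT8 M. The pair of ZT4 L and ZT8 L carried 58, ZT4 R and ZT8 L 52, and the pairs of ZT8 M with ZT4 L and with ZT4 R 51 each. These 4 libraries had the 4 longest day lists. The next pair, ZT0 M with ZT8 M, carried 36, and ZT0 M had the longest of the ZT0 lists.

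At the edge of the rule, members in 2 day lists had a mean of 2.73 day and 0.519 night libraries with a peak, and members in all 3 had 4.50 and 1.03. Just outside, the 5838 regions in 1 day list and no night list had 1.27 and 0.244. The 1965 regions in 2 or 3 day lists and 1 night list had 3.53 and 2.27. The median number of fragments at the summit in the day libraries was 7 and 8 in the 2 inner classes, and 6 and 8 in the 2 outer ones.

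The members were low peaks. Within each library's list, peaks were ranked by −log10 q, with 100 as the highest, and the highest peak of each region was taken. The median rank of the members lay between 19.9 (ZT0 L) and 34.9 (ZT4 M) in the day libraries, whereas the regions in all 6 lists had medians of 64.8 to 77.2 in the same libraries. In fragments, the member peaks of a day library had a median of 6 (ZT8 R) to 8 (ZT0 R) at the summit, against 9 to 14 for the regions in all 6 lists, and none of them had fewer than 4. Night-only regions in their own libraries had median ranks of 22.6 to 37.8, so that the low rank was shared by both classes. The night peaks inside the members were of the same kind, with median ranks of 16.0 to 33.1 and 6 to 8 fragments.

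Members with more day libraries had higher ranks and were wider. The median rank over day libraries was 26.2 in the 461 members called in 2 of them, 32.4 in the 162 called in 4 and 42.4 in the 28 called in 6. The median width went from 339 bp to 430.5 bp to 632 bp over the same classes, and the median number of fragments from 6 to 7 to 9. Union regions are joined from several lists, so a region with more listings can be wider by construction. A library list holds only peaks above a cutoff, so rank and fragment number are tied to the number of calls as well.

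**Figure D3:**
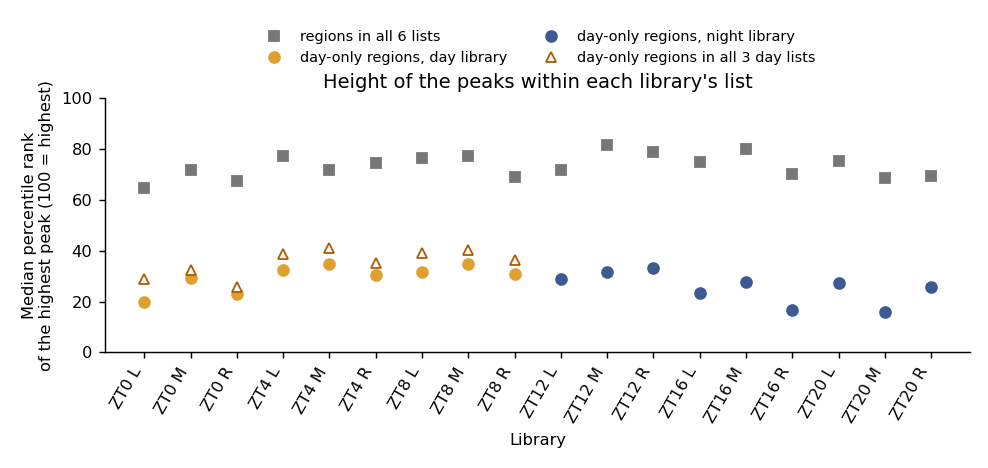
Points give, for each library, the median percentile rank (100 is the highest peak of the list) of the highest peak in the day-only regions, in the day-only regions of all 3 day lists, and in regions of all 6 lists. Day-only regions lie between 19.9 and 34.9 in the day libraries, below every point of the regions in all 6 lists.

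Whether height changed through the subjective day was asked in the 137 members of all 3 day lists, in which the rule treats the 3 time points alike. The median in each library covered only those of the 137 with a peak there, from 26 in ZT8 R to 107 in ZT0 M. This median rank was 29.0, 32.3 and 25.8 in ZT0 L, M and R. It was 38.8, 41.0 and 35.3 at ZT4, and 39.1, 40.4 and 36.3 at ZT8. All 3 ZT0 libraries thus lay below all 6 libraries of ZT4 and ZT8, which overlapped each other. The mean ± SD over the 3 libraries was 29.0 ± 3.27 for ZT0, 38.3 ± 2.84 for ZT4 and 38.6 ± 2.08 for ZT8. An exact two-sided permutation test of the F statistic over 1680 assignments gave p = 0.0321, and after Benjamini-Hochberg adjustment over the 3 tests of the report, p = 0.0964, the difference did not pass the threshold of 0.05. The regions in all 6 lists also ranked lower at ZT0, with 67.9 ± 3.51 (SD, n = 3) against 74.5 ± 2.62 at ZT4 and 74.1 ± 4.53 at ZT8, and the part of this in the members' values was not tested. With lists of equal length the exact p was 0.300 (adjusted p = 0.446), and with ranks by fold over background instead of −log10 q it was 0.00714 (adjusted p = 0.0214 from the same exact test).

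The widths of these peaks, over the same members in each library, overlapped between the 3 day time points. As a ratio to the median width of all peaks of the library, it was 0.903, 0.873 and 0.831 in ZT0 L, M and R, and 0.917, 0.857 and 0.886 at ZT4. At ZT8 it was 0.869, 1.09 and 0.917, and ZT8 M was the only library in which these peaks were wider than the median of its list. The means were 0.869 ± 0.0358, 0.886 ± 0.0303 and 0.959 ± 0.117 (SD, n = 3 each), and the exact permutation test gave p = 0.354 (adjusted p = 0.530).

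The 3 night time points were compared by the night calls that the rule left in the members. The value in each library was the share of members called over the share of all other union regions. Absence from the night lists chose the members, and these lists used library peaks and differed in length. The test therefore cannot separate a difference between night time points from that selection. The ratio was 0.114, 0.242 and 0.212 at ZT12, 0.157, 0.202 and 0.0962 at ZT16, and 0.215, 0.143 and 0.139 at ZT20. The 3 groups overlapped. Their means were 0.189 ± 0.0674, 0.152 ± 0.0530 and 0.166 ± 0.0427 (SD, n = 3 each), and the exact permutation test gave p = 0.686 (adjusted p = 0.686). Set against regions in the lists of 1 or 2 time points instead of all other regions, the ratios were highest at ZT20 (same exact permutation test, p = 0.0321, adjusted p = 0.0482). That reference includes regions listed at night, and the ZT20 list was the shortest night list, with 15405 regions against 21022 at ZT12 and 19647 at ZT16. The part of list length in this difference was not tested.

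The night peaks of the members were also counted by list pattern. Of the 571 members of ZT4 and ZT8, 97 (17.0%, Wilson interval 14.1 to 20.3) had a peak at ZT12, 79 (13.8%) at ZT16 and 53 (9.28%, 7.17 to 11.9) at ZT20. Of the 151 members of ZT0 and ZT4, 30 had one at ZT12, 22 at ZT16 and 21 at ZT20. In the 137 members of all 3 day lists, ZT12 and ZT20, the samplings that adjoin the day, had peaks in 42 (30.7%, 23.6 to 38.8) and 30 (21.9%, 15.8 to 29.5), and ZT16 in 20 (14.6%, 9.65 to 21.5). The 151 members of ZT0 and ZT8 that were missing at ZT4 had 37, 25 and 23. No test of these shares was made, and the ZT12 lists include the longest of all, ZT12 M.

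Most night peaks in the members had their summit close to a day summit. The 369 members with night peaks held 594 of them, counting the highest peak per library, and the median distance from a night summit to the nearest day summit was 25 bp. In 477 of the 594 (80.3%) it was 100 bp or less. The medians were 21 bp at ZT12, 25 bp at ZT16 and 31 bp at ZT20. A night peak had to overlap the member, and the nearest of the day summits was taken. Members with night peaks had a median width of 418 bp, so short distances are partly set by the measure. The same distance is not given here for other classes. The day summits of a member spanned a median of 91 bp over its day libraries, against 104 bp in the night-only class and 173 bp in the regions of all 6 lists, which had more libraries and more width to spread over.

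In size the members lay between the regions of 1 day list and those of all 6 lists. Their median width was 379 bp, with quartiles of 293.25 bp and 501 bp and a range of 153 to 1641 bp, and together they covered 0.426 Mb. Night-only regions had a median of 383.5 bp, regions in 1 day list and no night list 257 bp, and regions in all 6 lists 563 bp. Over all union regions the median was also 379 bp. Members in all 3 day lists had a median of 442 bp and those in 2 had 367 bp. A width of 1000 bp or more was reached by 16 members (1.58%), by 1.29% of the night-only regions and by 7.85% of the regions in all 6 lists.

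The members followed the gene-rich chromosome arms, as soybean open chromatin in general did. Counting the outer 25% at either end of each chromosome, 784 members (77.6%, Wilson interval 74.95 to 80.1) lay there. The share was 72.7% (70.5 to 74.7) in the night-only class, 74.4% (73.4 to 75.5) in the regions of all 6 lists and 73.3% in all union regions. At 40% to 50% of the chromosome length from the nearer end, which is the middle of the chromosome, lay 52 day-only regions (5.15%) and 161 night-only regions (9.46%), against 7.98% of the regions in all 6 lists and 8.48% of all union regions. Over the 20 chromosomes, members made up 2.05% (chromosome 18) to 4.15% (chromosome 12, 67 of 1615 regions, Wilson interval 3.28 to 5.23) of the union regions.

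**Figure D4:**
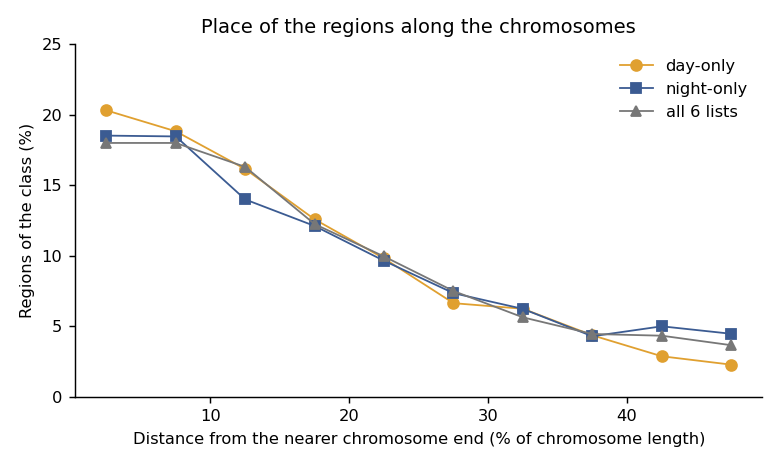
Lines give the share (%) of the regions of each class in 10 bins of distance from the nearer chromosome end, as a percent of chromosome length. All 3 classes fall from the ends to the middle, and the day-only class ends lowest, at 2.28% in the innermost bin.

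The spacing of the members was near that of all regions. The median distance to the nearest region of all 6 lists was 27.0 kb, against 29.3 kb in the night-only class, 30.6 kb over all union regions and 26.8 kb among the regions of all 6 lists themselves. Within 1 kb of one lay 34 members (3.37%), against 3.43% of the union regions, and within 5 kb lay 13.5% of the members and 12.1% of the union regions. A region of a night list lay within 500 bp of 73 members, which leaves 937 without such a neighbour. Between members the median distance was 180.5 kb, and it was 120.2 kb in the larger night-only class. Only 32 of them formed pairs within 5 kb, of which the closest stood on chromosome 11, from 3367430 to 3367841 and from 3368015 to 3368607, with 173 bp between them. Each of this pair was called in 5 day libraries, and they had 1 and 3 night libraries. A pair on chromosome 5 held a region called in 6 day and no night libraries (39823718 to 39824184) and, 1441 bp away, a region called in 6 day and 5 night libraries (39825626 to 39826265). The pairs were picked after their values were seen.

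Individual members are given by the fragments at the summit of their highest peak in each library. These numbers are not corrected for the local background, which differed between regions, so they are not directly comparable from region to region. Where several regions lie on 1 chromosome, letters follow their order along it. The region with the largest excess of day over night libraries was on chromosome 16, from 30679267 to 30680219 (953 bp, chromosome 16 a). It had 16, 11 and 12 fragments in ZT0 L, M and R, 15, 11 and 23 at ZT4, and 14, 16 and 8 at ZT8. A single night library, ZT20 M, had a peak, with 9 fragments. All 9 day libraries thus had a peak, and the 1 night value lay above the lowest day value, that of ZT8 R. This member lay 1.83 kb from a region listed at all 6 samplings.

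The other member called in all 9 day libraries was on chromosome 2, from 5783469 to 5784560 (1092 bp, chromosome 2 b), with a median rank of 64.8 against 54.2 in the chromosome 16 region. Its fragments were 10, 16 and 20 at ZT0, 19, 19 and 17 at ZT4, and 12, 11 and 10 at ZT8. ZT20 L had 7 and ZT20 R had 15, so the night peaks of this region were both from the last sampling before subjective dawn. A constant region lay 1.52 kb away.

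A narrow region of 281 bp on chromosome 10, from 45294544 to 45294824, held the most fragments of the named members, 35 in ZT8 M. Its local background there was 2.68 fragments, against 0.476 as the most frequent background of that library. Its median rank of 76.9 was below those on chromosomes 18 (84.5), 11 (83.3) and 14 (81.7). The region had 10, 18 and 12 fragments at ZT0, 24 and 29 in ZT4 L and R, and 29, 35 and 15 at ZT8, with no peak in ZT4 M. ZT12 M, the library with the longest list, had 25. Its ZT0 values lay below those of the 5 later day peaks, except that ZT0 M exceeded ZT8 R. The 373 bp region on chromosome 14, from 7236685 to 7237057, was alike in that ZT12 M was the only night library with a peak (19 fragments). By day it had 9 fragments in ZT0 M, 15, 6 and 5 at ZT4, and 17, 25 and 16 at ZT8.

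Among members with no night peak at all, 2 were called in 7 day libraries. On chromosome 16, from 32400662 to 32401302 (chromosome 16 b), these had 6 to 9 fragments, and ZT0 M and ZT8 R were the libraries without a peak. On chromosome 12, from 162019 to 162341, they also had 6 to 9 fragments, and ZT4 L and ZT8 R had no peak. This second region lay at the very end of its chromosome, 0.405% of its length from the start. Both were low, with median ranks of 39.2 and 30.2.

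In all, 14 members had 6 day libraries and no night library. The 6 of highest median rank among them were named, and the other 8 had median ranks of 25.1 to 39.2. The 6 lay on chromosome 19 (45949313 to 45950096), chromosome 15 (43517776 to 43518374), chromosome 2 (15220608 to 15221016, chromosome 2 c), chromosome 17 (9667734 to 9668360), and chromosome 1 (53229472 to 53230108, chromosome 1 b, and 49270656 to 49271179, chromosome 1 a). The region on chromosome 2 had no ZT0 peak, and its fragments were 5, 6 and 11 at ZT4 and 12, 10 and 8 at ZT8. The later region on chromosome 1 showed the other order, with 10, 9 and 16 fragments at ZT0, 14 and 10 in ZT4 L and M, and 11 in ZT8 L alone. Thus the members with the same number of day calls differed in which part of the day they covered. Over all 14 members the fragments lay between 5 and 16 and the median ranks between 25.1 and 61.6.

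The highest-ranking member with at least 5 day calls was on chromosome 18, from 6008319 to 6008819 (501 bp). It had no peak at ZT0 or at night, 20 and 17 fragments in ZT4 L and R, and 20, 17 and 12 at ZT8. Its median rank was 84.5, and in each of its 5 libraries it ranked above the median of the regions in all 6 lists. The widest member was on chromosome 9, from 43682827 to 43684467 (1641 bp), also without any peak at ZT0 or at night. It had 15, 11 and 9 fragments at ZT4, 14 and 12 in ZT8 L and M, and none called in ZT8 R, and its day summits spanned 477 bp.

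Some members were called as often by night as by day. The region on chromosome 11 from 3381217 to 3382145 (929 bp) stood in all 3 day lists and no night list, and yet all 9 night libraries had a peak in it. By day it had 11 and 14 fragments in ZT0 L and M, 15, 9 and 16 at ZT4, and 15 and 15 in ZT8 L and M, and the 2 day libraries without a peak were ZT0 R and ZT8 R. By night it had 13, 25 and 16 at ZT12, 23, 19 and 6 at ZT16, and 14, 12 and 11 at ZT20. The night values overlapped the day values and reached above them, so the library peaks of this region differed from its day-only listing. With a median rank of 83.3 it was also among the 3 highest-ranking members with at least 5 day calls. It lay in the same stretch of chromosome 11 as the closest pair of members described above.

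Another 4 members had 7 night libraries each, and the 2 named, the one with the fewest day calls and the first by position of the rest, were on chromosome 2. The first, from 4955458 to 4956224 (chromosome 2 a), had 6 to 9 fragments in 5 day libraries and 5 to 7 in its night libraries. The second, from 32315404 to 32316050 (chromosome 2 d), had 8 to 18 fragments in 6 day libraries and 6 to 18 in its night libraries, and a region of a night list lay 0.437 kb away. These 3 regions were chosen for their night calls, and such members were few, since 14 of the 1010 had a peak in 5 or more night libraries.

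**Figure D5:**
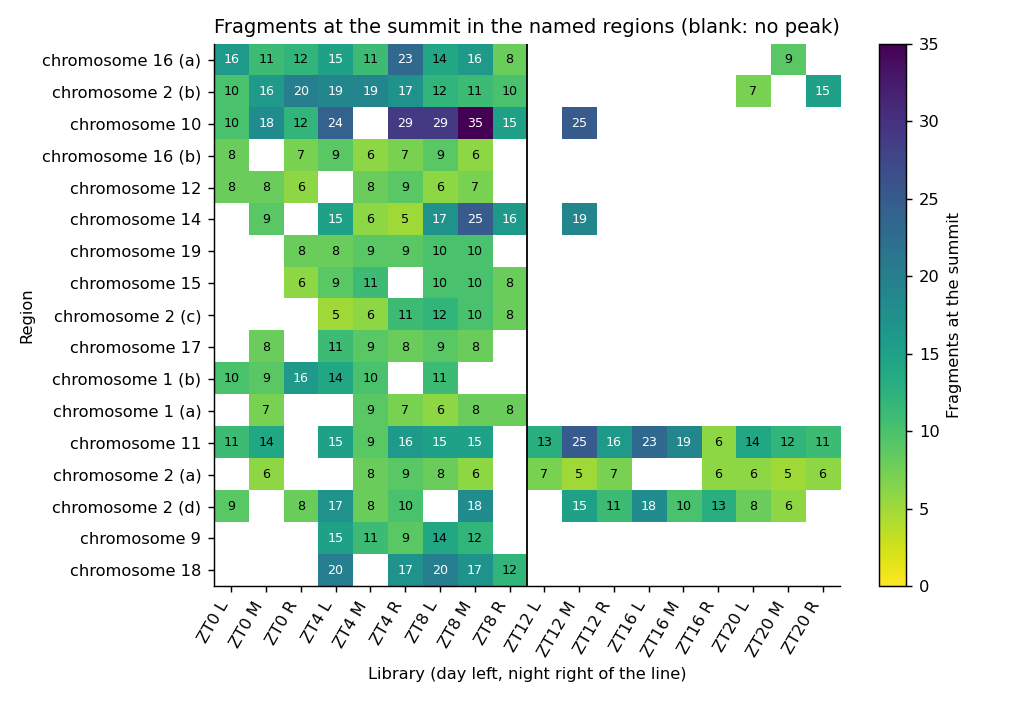
Colour and digits give the fragments at the summit of the highest peak in each of the 17 named regions (rows, by chromosome, with letters in order of position) and each library (columns), and blank cells have no peak. The 12 upper rows are almost blank to the right of the line, whereas the chromosome 11 row is filled in all 9 night libraries.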

How the data were processed

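The members, the comparison classes and the lists of regions were chosen with earlier results of these data known. After trimming, the authors mapped read pairs with Bowtie2 to Wm82.a2.v1, allowing 10 alignments for each pair, so fragments of repeated sequence can count at several places. MACS2 was run by them on single libraries, sampled to 1 depth, and on the pooled reads of a time point. Pooled peaks were kept where single replicates also had them, and were then filtered. In the deposited library lists each peak has a fold over background (a ratio), a −log10 p and a −log10 q. The lowest −log10 q was 1.30. The deposited merged lists hold positions only, without replicates.

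Peaks were ranked only within a list. The fold and the Poisson p that MACS2 writes depend on the same fragment number and local background, so the fragments at the summit were solved from the pair of values. For peaks with a −log10 p under 50, a whole number met both within 0.003 on the −log10 p scale in 99.8% of cases. The most frequent local background of a library lay between 0.390 and 0.784 fragments per base. Raw read depth per library is not given in the sources used here, so equal depth of the library lists could not be checked.

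Regions were named by rule. These were the 12 members with the largest day minus night calls (ties by more day calls, then by higher median rank), the 3 with the most night calls (ties by fewer day calls, then by position), the widest, and the 3 of highest median rank among those with 5 or more day calls, 17 in all since 2 met more than 1 part. Groups came from the labels. Time points were compared by exact permutation of the F statistic with Benjamini-Hochberg adjustment over 3 tests and a threshold of 0.05, and shares have 95% Wilson intervals. Chromosome lengths were taken as the farthest peak end. Joining, fragment recovery and the exact test were tested on simulated data. The alternatives were equal list lengths (7668 peaks), 50% of a region covered, a −log10 q of at least 5, ranks by fold, means for medians, other member and reference sets, each library left out, and the replicate letter as a block. Alternatives that set aside ZT8 R or all libraries of 1 night time point were added after seeing the data. Same-lettered libraries did not deviate together, with r from -0.0497 to 0.0713 over 45 pairs, so the letters were not taken as pairs. Analyses ran in Python 3.11.15 (scipy 1.17.1, pandas 2.3.3, numpy 2.4.6, matplotlib 3.10.9).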

Additional observations from a re-analysis of the deposited data

How the results depend on the processing

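The number of day-only regions rested on how much support a listing needed. It was 1010 by the rule, 137 when all 3 day lists were asked for, and 113 when 2 or more libraries had to back each listing, while it was 937 without those within 500 bp of a night-list region, 1010 when only overlapping regions were joined, and 961 without listings that rested on ZT8 R alone. The 641 members with no night library peak became 646 to 720 when each night library was left out, and 834 with 50% of the region covered, 905 with a −log10 q of at least 5 and 931 with lists of equal length, settings that can only remove night peaks. Such settings can remove day peaks too. With lists of equal length, 588 of the 1010 members had a peak in 1 or more day libraries.

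Of the 3 exact permutation tests, none passed after adjustment as planned. The height rank over the day had an adjusted p of 0.0964, which was 0.0214 when ranks used the fold over background and 0.446 with lists of equal length, and it lay between 0.0696 and 0.139 when each library was left out. The peak width had an adjusted p of 0.530, between 0.0696 (without ZT8 L, exact p = 0.0429) and 0.686 on leaving out libraries. The night calls had an adjusted p of 0.686, between 0.354 and 0.943 on leaving out libraries, and 0.0482 against regions in the lists of 1 or 2 time points. Their ratio also reflects the choice of members by the night lists. The causes of these changes were not tested. With the replicate block, the adjusted p values from exact permutation were 0.25, 0.778 and 0.778, and no call changed. With 3 libraries a time point the smallest exact p was 0.00357. The merged lists have no replicates, so a listing itself carries no error.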
